A study of Drosophila melanogaster with 6 samples.

Results

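The proteasome subunit genes of Drosophila melanogaster were taken as the genes whose current symbol starts with Prosalpha, Prosbeta, Rpn plus a digit or Rpt plus a digit. The rule found 48 genes, and 40 of them had a probe set that names that gene alone, out of 11982 genes measured in this way. The 40 comprise 12 of 14 genes of the 20S core, 14 of 18 genes of the 19S cap and 14 of 16 related copies whose symbols carry a T or an R after the subunit name. The copies are called testis-type here by their names. Each of the 40 genes had 1 single-gene probe set. Prosbeta1, Rpn9, Rpn10, Rpt1, Rpt6 and Rpt6R had no paired probe set, and Prosalpha1 and its copy Prosalpha1R were read by 1 probe set that names both.

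The proteasome is the large protease that degrades proteins tagged with ubiquitin in the cytoplasm and nucleus. Its 20S core is a barrel of stacked alpha and beta rings, in which the alpha rings gate the entrance and some beta subunits carry the proteolytic sites. The 19S cap binds the barrel's end, where Rpt ATPases unfold substrates and Rpn subunits recognise ubiquitin and cleave it off. Flies carry additional copies of several subunit genes, and many of these copies are known from the testis, where they are used during sperm formation.

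RNA was prepared from whole larvae of instar 1, with sexes and tissues mixed, and was hybridised to 6 Affymetrix arrays. The series compared 3 replicates of larvae labelled as mutant for Pof (allele D119 in the series title) with 3 replicates of wild type larvae, and each replicate, described as biological, was made from 200 larvae. The Pof protein is known to coat chromosome 4. No proteasome gene of the rule lies on chromosome 4. The labels do not give the nature of the mutation, the genetic background of either group or a batch. Signals are log2 RMA values, RMA being a method that corrects background, scales the arrays and combines the probes of a set. Differences are given as mutant-labelled minus wild type. In whole larvae, fewer cells of a type and less RNA per cell cannot be told apart.

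The Pof probe set read 8.35, 8.44 and 8.43 on the mutant-labelled arrays and 6.74, 6.83 and 6.82 on the wild type arrays, a difference of 1.61 (SE 0.07, limma adjusted p = 9.47e-05). The signal was thus higher under the mutant label. Where this probe set lies relative to the mutation is not given, so it cannot check the labels, and every direction rests on them. Wild type replicate 1 stood apart from the other wild type arrays, with r = 0.980 and 0.979 over all probe sets, against 0.998 between replicates 2 and 3. Pof mutant replicate 2 differed from the rest in its RNA controls, where the 3' signals of 3 control genes exceeded their 5' signals by 2.03 on average, against 1.20 to 1.48 on the remaining arrays.

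Genes of the ubiquitous proteasome gave bright signals on every array, and the testis-type copies gave dim ones. The mean signals over the 6 arrays were 8.64 to 10.8 for the 12 core genes and 8.70 to 10.3 for the 14 cap genes. All 26 lay above the upper quartile of every array (8.34 to 8.43). The mean signals of the 14 copies were 4.44 to 6.01, all below the median of every array (6.46 to 6.56), and 8 of the 14 lay below every lower quartile (5.11 to 5.24). Probe sets differ in how strongly they bind, and no detection calls were used, so these signals do not rank transcripts by abundance and do not show whether the dimmest probe sets lay above background. The plot of signals by array shows the gap between the ubiquitous genes and the copies.

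**Figure D1:**
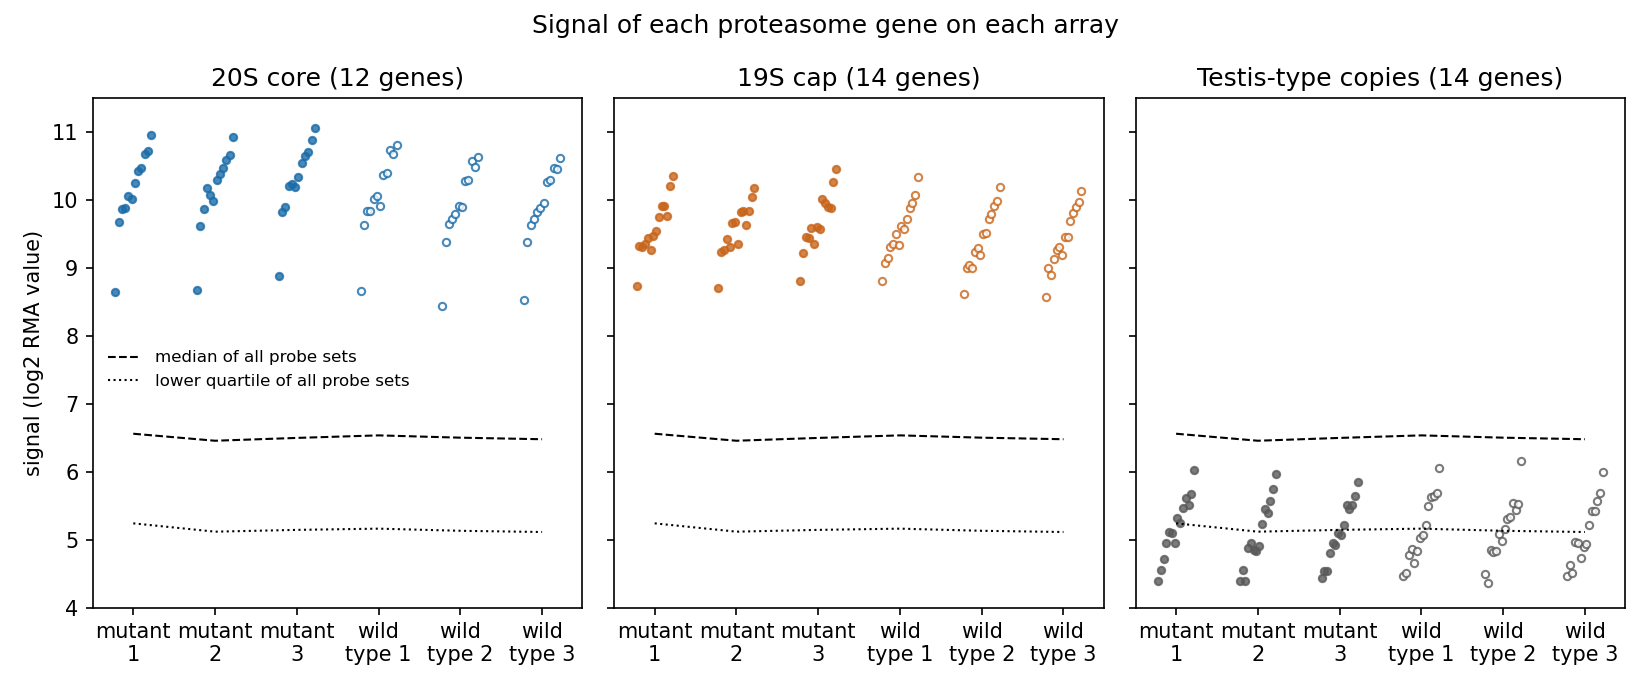
Signal of each measured proteasome gene (y axis, log2 RMA value) on each of the 6 arrays (x axis), for the 20S core, the 19S cap and the testis-type copies. Points are single genes, in order of their mean signal within each array, filled for mutant-labelled arrays and open for wild type arrays, and dashed and dotted lines are the median and the lower quartile of all probe sets. All 26 core and cap genes lie above the median line and all 14 copies lie below it.

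The group comparison asked whether these genes differ between larvae with and without the Pof mutation. A single proteasome gene passed limma's test at an adjusted p under 0.05 over all probe sets: Prosalpha7, which rose. Of the 40 genes 1 was called higher and 0 were called lower, against a background of 4.09% of all 11982 genes called in either direction, 2.65% of them higher and 1.44% lower. That count is close to the background. The differences of the bright genes were small and mostly above 0. All 12 core genes and 11 of 14 cap genes had a difference above 0, as did 56.7% of all genes, whereas 6 of the 14 copies did. The median difference was 0.21 over the core, 0.16 over the cap and -0.01 over the copies, against 0.02 over all genes. Among the 8748 genes read by the brighter 60% of probe sets, the median was 0.02 as well.

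No gene of the 40 had a 95% interval that reached a change of 1.5-fold. The intervals of the differences ran between -0.45 and 0.56 at their extremes. In simulated data of the same size, 55.2% of probe sets changed by 1.5-fold were called. The changed probe sets were drawn at random and their noise was independent, so this share does not measure the chance of a call for proteasome genes. Smaller changes were not simulated.

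The alpha ring of the core forms the gated entrance of the barrel. Prosalpha7 (CG1519, arm 2R), one of its subunits, read 10.25, 10.30 and 10.34 on the mutant-labelled arrays and 9.92, 9.89 and 9.96 on the wild type arrays. Its lowest mutant-labelled value lay above its highest wild type value. The means were 10.30 ± 0.05 and 9.92 ± 0.03 (SD, n = 3 each), a 1.30-fold higher signal on the mutant-labelled arrays (log2 difference 0.37, SE 0.07, limma adjusted p = 0.0294). The call was lost when any single array was left out, with adjusted p between 0.0571 and 0.153 and differences between 0.35 and 0.40. The Prosalpha7 probe set has the suffix _a, which marks probes that can match several transcripts of a gene.

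The other 5 measured alpha ring genes did not pass the test. Prosalpha6 (CG4904) read 9.68, 9.62 and 9.82 in the mutant-labelled larvae and 9.63, 9.38 and 9.38 in wild type, a difference of 0.24 (adjusted p = 0.343). The wild type value of replicate 1 lay within the mutant-labelled range. Prosalpha4 (CG3422), the dimmest core gene, read 8.65, 8.67 and 8.88 against 8.66, 8.44 and 8.53 in wild type, a difference of 0.19 (adjusted p = 0.462). Prosalpha2, Prosalpha3 and Prosalpha5 differed by 0.15, 0.18 and 0.11 (adjusted p = 0.456, 0.390 and 0.696). In Prosalpha2 and Prosalpha3 all mutant-labelled values lay above all wild type values, as they did in 14.5% of all genes. In Prosalpha4 and Prosalpha5 wild type replicate 1 again reached into the mutant-labelled range. The median difference of the 6 alpha ring genes was 0.18.

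The probe set shared by Prosalpha1 and Prosalpha1R went the other way. It read 10.56, 10.59 and 10.76 on the mutant-labelled arrays and 11.22, 11.06 and 11.05 on the wild type arrays. All 3 mutant-labelled values lay below all 3 wild type values. The means were 10.64 ± 0.11 and 11.11 ± 0.09 (SD, n = 3 each), 0.72 times the wild type signal (log2 difference -0.47, SE 0.09, limma adjusted p = 0.0355). Both genes lie on arm 2R and carry the same subunit name. The probe set names both, so it cannot separate their transcripts, and it enters none of the counts above. It was singled out after its values were seen. The call was lost when any array except mutant-labelled replicate 3 was left out (adjusted p 0.0605 to 0.120), and the difference stayed between -0.54 and -0.42 over all 6 such settings.

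**Figure D2:**
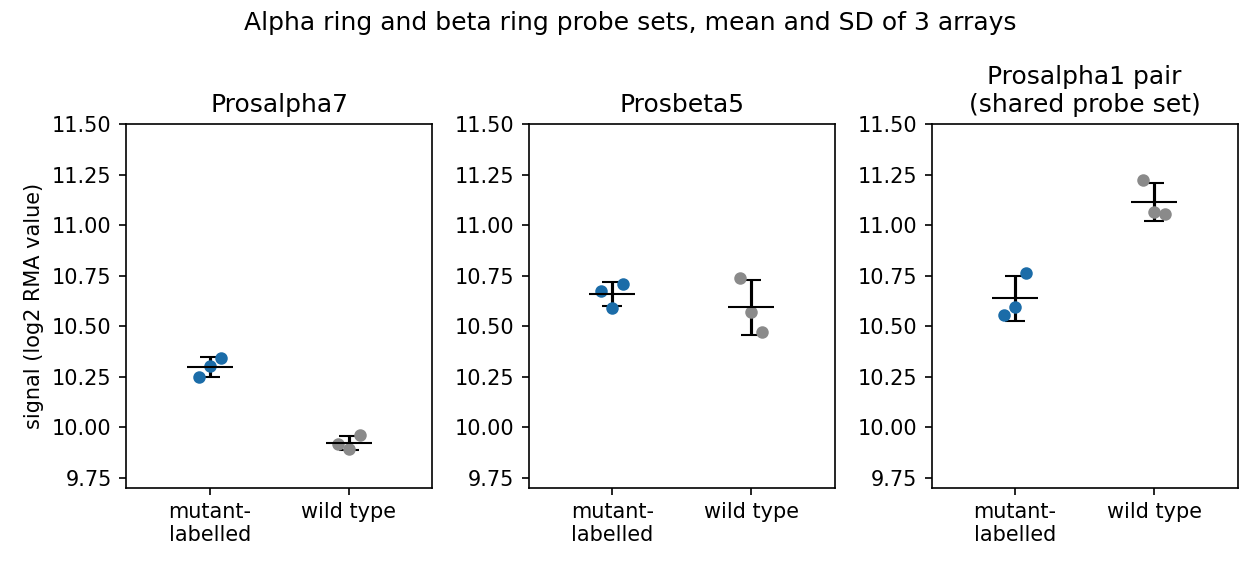
Signals (y axis, log2 RMA value) of Prosalpha7, Prosbeta5 and the probe set shared by Prosalpha1 and Prosalpha1R, with mutant-labelled arrays left of wild type arrays. Points are arrays, and bars give the mean and SD of 3 arrays. Prosalpha7 lies higher in all 3 mutant-labelled arrays, Prosbeta5 overlaps between the groups, and the shared probe set lies lower in all 3 mutant-labelled arrays.

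The beta ring holds the proteolytic sites. Prosbeta5 (CG12323), whose subunit carries the chymotrypsin-like activity, read 10.68, 10.59 and 10.71 on the mutant-labelled arrays and 10.74, 10.57 and 10.47 on the wild type arrays. The groups overlapped, with the highest value in wild type replicate 1, and the difference of 0.07 had the lowest size in the core (95% interval -0.14 to 0.27, adjusted p = 0.846). This difference was 0.14 without wild type replicate 1, where the groups no longer overlapped, and 0.0055 without wild type replicate 3. Prosbeta2 (CG3329), whose subunit carries the trypsin-like activity, read 10.47, 10.47 and 10.65 against 10.40, 10.30 and 10.30 in wild type. Its groups did not overlap, and the difference was 0.20 (95% interval 0.01 to 0.39, adjusted p = 0.323). Prosbeta1, the gene of the caspase-like subunit, was not analysed here.

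Of the beta subunits without a catalytic site, Prosbeta4 and Prosbeta7 had the largest differences in the ring. Prosbeta4 (CG17331) read 9.89, 10.17 and 10.20 in the mutant-labelled larvae and 9.84, 9.72 and 9.73 in wild type, a difference of 0.32 (SE 0.10, adjusted p = 0.190). Mutant-labelled replicate 1 lay close to the wild type values. Prosbeta7 (CG12000), the brightest gene of the core, read 10.96, 10.93 and 11.06 against 10.81, 10.64 and 10.61 in wild type, a difference of 0.30 (SE 0.08, adjusted p = 0.135). Prosbeta3 (CG11981), the next brightest, differed by 0.21 (adjusted p = 0.390), and Prosbeta6 by 0.24 (adjusted p = 0.304). Prosbeta4 and Prosbeta7 were called under a single alternative among those run, with arrays weighted by their quality (adjusted p = 0.0293 and 0.0230). In that fit 840 of all 11982 genes were called. The weights were 0.50, 0.57 and 1.81 for mutant-labelled replicates 1, 2 and 3, and 0.52, 2.21 and 1.69 for those of wild type. The weighted differences thus rest largely on mutant-labelled replicate 3, the highest array of its group for 12 of 12 core genes. The median difference over the 6 beta ring genes was 0.22. Limma called 0 of the 6, where 4.09% of all genes were called. Before adjustment 4 had p under 0.05, all 4 higher, where 10.5% of all genes were.

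In the 19S cap, limma called 0 of 14 genes, where 4.09% of all genes were called. Without adjustment 6 cap genes and 6 core genes had p under 0.05, each of them higher, and 0 were lower, where 10.5% of all genes were higher and 6.31% lower at that level. The measured members of the cap's base, which touches the core, were the ATPases Rpt2 to Rpt5 together with Rpn1, Rpn2 and Rpn13. Their median difference was 0.09, and that of the 4 ATPases among them was 0.25. The 10 measured cap genes that are not ATPases had a median of 0.14. The measured members of the lid, which holds the deubiquitinating enzyme, were Rpn3, Rpn5, Rpn6, Rpn7, Rpn8, Rpn11 and Rpn12, and their median difference was 0.17.

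The ATPases did not share a single size of difference. Rpt5 (CG10370) read 9.75, 9.82 and 10.01 on the mutant-labelled arrays and 9.57, 9.52 and 9.46 on the wild type arrays, a difference of 0.34 (SE 0.09, adjusted p = 0.103). Rpt4 (CG3455) read 9.33, 9.23 and 9.22 against 9.07, 9.00 and 9.00 in wild type, a difference of 0.24 (adjusted p = 0.154). Rpt2 (CG5289) read 9.36, 9.42 and 9.44 against 9.31, 9.00 and 9.12 in wild type, a difference of 0.26 (adjusted p = 0.258). In these 3 genes all mutant-labelled values lay above all wild type values, as they did in 14.5% of all genes. Rpt3 (CG16916) read 9.91, 9.63 and 9.90 on the mutant-labelled arrays and 9.89, 9.80 and 9.81 on the wild type arrays, and its difference was -0.02 (95% interval -0.24 to 0.20, adjusted p = 0.966). Its wild type values fell inside the range of the mutant-labelled ones. Whether Rpt3 differs from the other ATPases was not tested.

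Rpn1 and Rpn2 are the large scaffold subunits of the base, and Rpn13 is a ubiquitin receptor. Rpn1 (CG7762), the dimmest cap gene, read 8.73, 8.70 and 8.80 against 8.80, 8.61 and 8.57 in wild type, a difference of 0.09 (adjusted p = 0.762), which was 0.16 without wild type replicate 1 and 0.04 without wild type replicate 3. Rpn2 differed by 0.06 (adjusted p = 0.906), with an SD of 0.21 over the mutant-labelled arrays, the widest of the cap in that group. Rpn13 differed by -0.03 (adjusted p = 0.926). In all 3 genes the groups overlapped, those of Rpn1 only through wild type replicate 1.

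Rpn8 and Rpn11 form the pair at the heart of the lid, in which Rpn11 cleaves ubiquitin off the substrate. Rpn8 (CG3416) read 9.47, 9.68 and 9.61 in the mutant-labelled larvae and 9.33, 9.19 and 9.20 in wild type. The groups did not overlap, and the difference of 0.34 (SE 0.08, adjusted p = 0.0908) was the largest of the cap. Rpn11 (CG18174) read 10.21, 10.04 and 10.27 against 10.08, 9.99 and 9.97 in wild type, and its groups overlapped (difference 0.16, adjusted p = 0.467). Rpn3 (CG42641), a structural subunit of the lid, read 9.30, 9.26 and 9.45 against 9.14, 9.05 and 8.89 in wild type, a difference of 0.31 (adjusted p = 0.169). Rpn3, Rpn8 and Rpt5 were likewise called with array weights (adjusted p = 0.0417, 0.0172 and 0.0200), and Rpn8 also at the looser threshold of an adjusted p under 0.10.

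Rpn6 (CG10149), a lid subunit known from yeast to clamp lid and core together, was the single core or cap gene with all mutant-labelled values below all wild type values. It read 9.77, 9.84 and 9.88 on the mutant-labelled arrays and 9.95, 9.90 and 9.90 on the wild type arrays, a difference of -0.08 (95% interval -0.24 to 0.07, adjusted p = 0.696). The gap is narrow beside the spread of the other genes. Rpn5 (CG1100), the brightest cap gene, differed by 0.11, Rpn7 by 0.17 and Rpn12 by 0.19 (adjusted p = 0.721, 0.504 and 0.268).

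**Figure D3:**
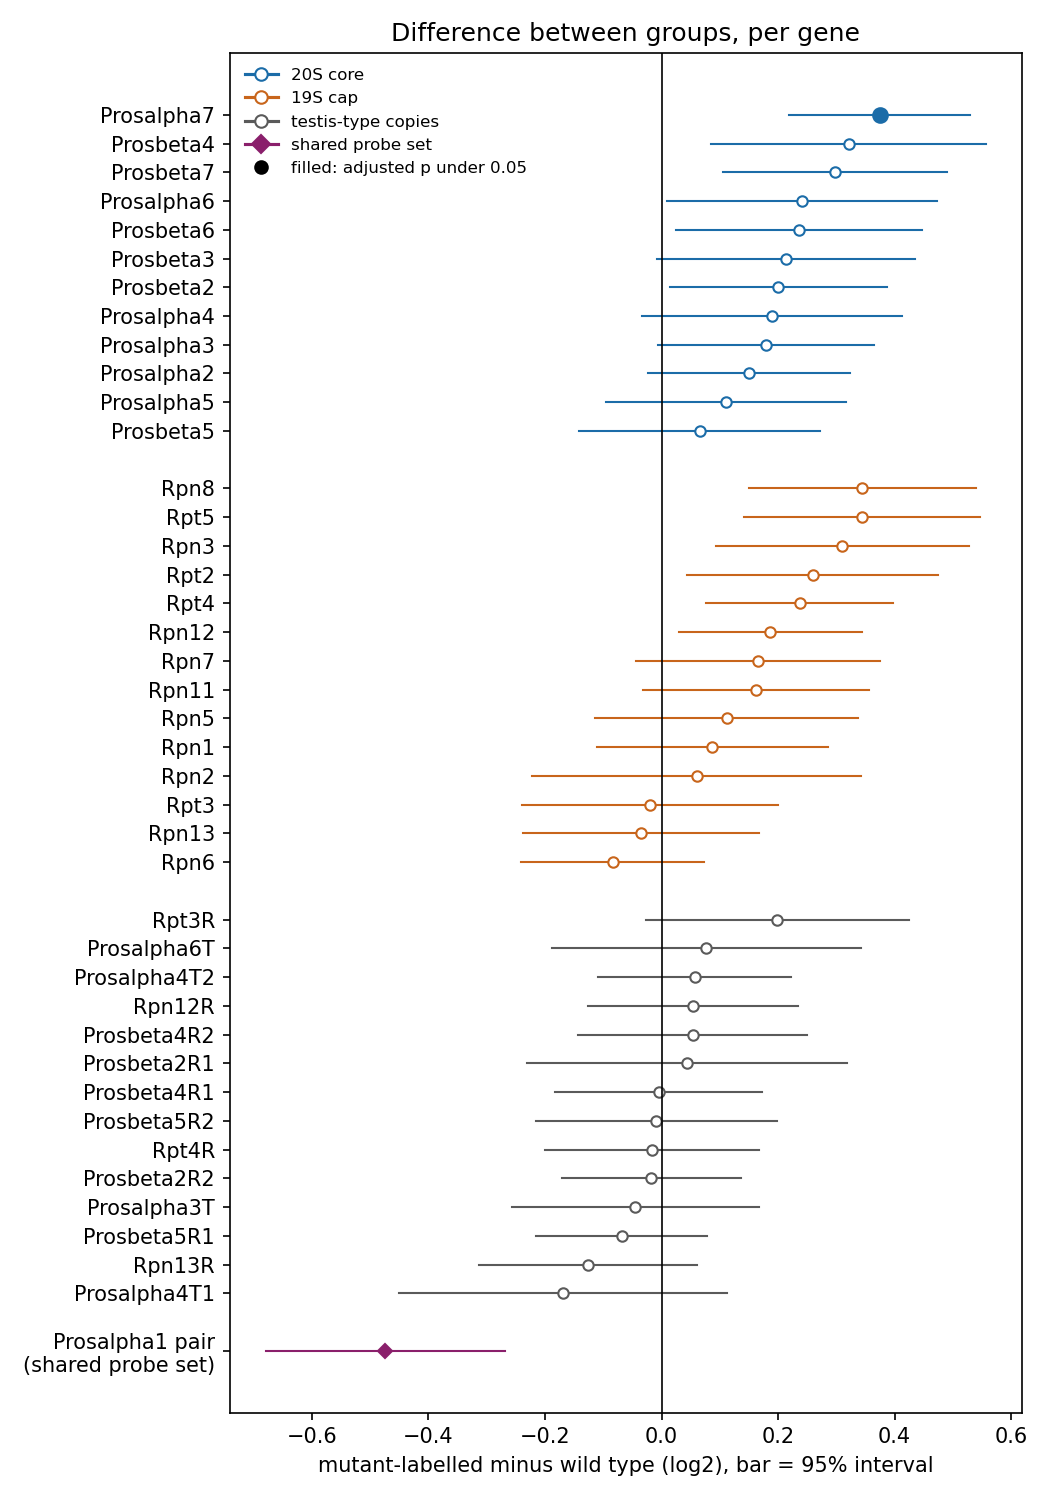
Difference between mutant-labelled and wild type arrays (x axis, log2, point with 95% interval from limma) for each measured proteasome gene (y axis), by group and in order of size, with the probe set shared by Prosalpha1 and Prosalpha1R at the bottom. All 12 core genes lie right of 0, among the 40 genes Prosalpha7 alone is filled as called, and the shared probe set, filled as called too, lies at -0.47.

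The bright genes varied together from array to array, inside the groups as well as between them. Within the mutant-labelled group, replicate 3 gave the highest value for 12 of 12 core genes and 10 of 14 cap genes, as it did for 25.5% of all genes. Within the wild type group, replicate 1 gave the highest value for 11 of 12 core genes and 14 of 14 cap genes, as it did for 30.8% of all genes. The median distance of a core gene on wild type replicate 1 from its mean on wild type replicates 2 and 3 was 0.18, nearly as large as the core's median difference between the groups. For the cap this distance was 0.12 and for the testis-type copies 0.02.

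Taken as the median deviation of a gene from its own mean over the 6 arrays, the core stood at 0.05, 0.04 and 0.23 on mutant-labelled replicates 1, 2 and 3. On wild type replicates 1, 2 and 3 it stood at 0.02, -0.18 and -0.16. The same medians for the cap were 0.08, 0.01 and 0.16 on the mutant-labelled arrays and 0.01, -0.11 and -0.13 on the wild type arrays. The groups thus kept apart in both, but only narrowly between mutant-labelled replicate 2 and wild type replicate 1. These 2 arrays stood at 0.038 and 0.021 for the core and at 0.0127 and 0.0079 for the cap. In the median signal of the 14 cap genes the groups overlapped, with 9.50 on mutant-labelled replicate 1 and 9.54 on wild type replicate 1. For the copies all 6 medians lay between -0.02 and 0.03, and the groups overlapped. All 14 copies read below the median of every array, so their medians do not show whether their transcripts shifted as well.

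**Figure D4:**
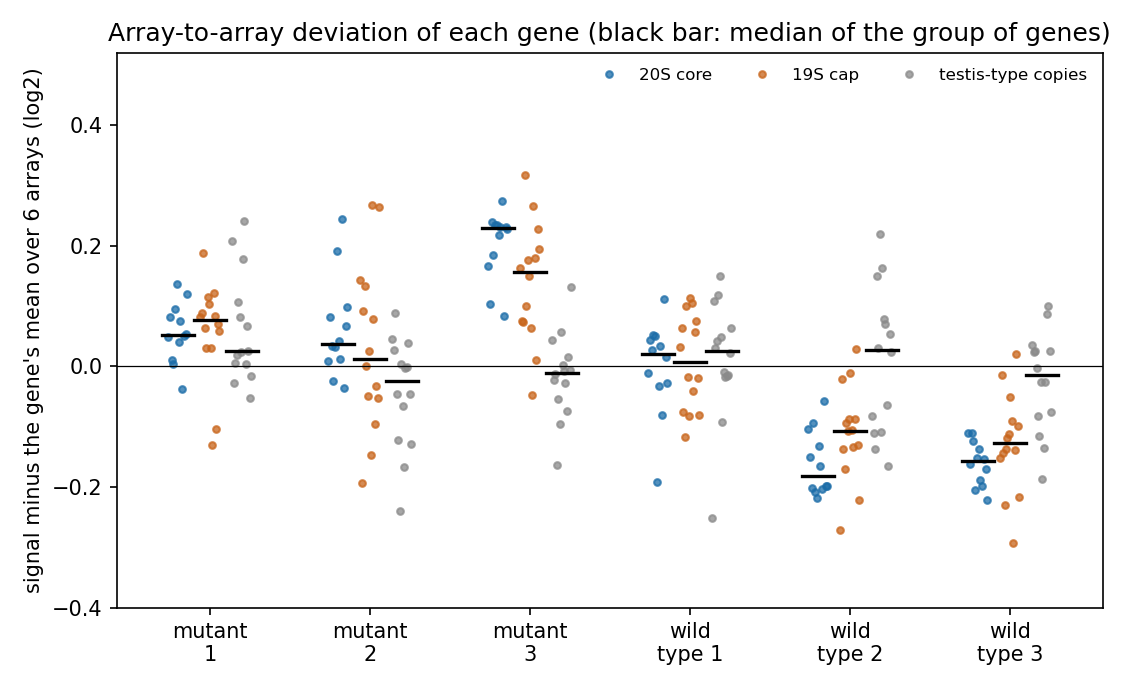
Signal of each measured proteasome gene minus its own mean over the 6 arrays (y axis, log2), by array (x axis), for core genes, cap genes and testis-type copies. Points are genes and black bars are medians of the group of genes. The core bars run from 0.23 on mutant-labelled replicate 3 to -0.18 on wild type replicate 2, and the bars of the copies stay near 0.

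Wild type replicate 1 was also the array with high signals of cuticle genes. Of 119 measured genes of the Twdl, Cpr, Osi and Lcp families, 79 had their highest value there, and the median signal of the 119 was 6.46, 6.37 and 6.62 on the mutant-labelled arrays and 8.42, 6.41 and 6.36 on wild type replicates 1, 2 and 3. The sum of their log2 signals was 823 to 840 over the mutant-labelled arrays and 827 to 1028 over the wild type arrays. With all arrays, 7 of 12 core genes and 6 of 14 cap genes had mutant-labelled values all above the wild type ones, as had 14.5% of all genes, and 0 core genes and 1 cap gene had them all below, as had 7.95% of all genes. Against wild type replicates 2 and 3 alone, 12 of 12 core genes and 9 of 14 cap genes lay all above, as did 19.3% of all genes. In that comparison 0 core genes and 1 cap gene lay all below, as did 1819 of all 11982 genes. Without wild type replicate 1 the median differences were larger than with all arrays, at 0.27 over the core and 0.19 over the cap. Limma then called 0 of the 40 genes and 536 of all 11982. Since that array was the highest of wild type for 25 of the 26 core and cap genes, leaving it out raises their differences by construction. Leaving out mutant-labelled replicate 3 instead, the highest of its group for 22 of the 26, lowered the medians to 0.16 and 0.11.

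Of the 14 testis-type copies limma called 0, where 4.09% of all genes were called. The mutant-labelled values lay all above the wild type ones in 1 copy and all below in 1, against 14.5% and 7.95% of all genes. Among the copies of alpha subunits, Prosalpha3T, Prosalpha4T1, Prosalpha4T2 and Prosalpha6T differed by -0.05, -0.17, 0.06 and 0.08 (adjusted p = 0.650 to 0.906). Prosalpha4T1 read 4.71, 4.39 and 4.54 on the mutant-labelled arrays and 4.78, 4.85 and 4.51 on the wild type arrays, and its groups overlapped. Among the copies of beta subunits, the differences ran from -0.07 for Prosbeta5R1 to 0.05 for Prosbeta4R2, with Prosbeta2R1 at 0.04, Prosbeta2R2 at -0.02, Prosbeta5R2 at -0.01 and Prosbeta4R1 at -0.0050. Prosbeta5R1 read 4.39, 4.40 and 4.44 against 4.47, 4.50 and 4.47 in wild type. Its groups did not overlap, although its adjusted p was 0.736 and its signals were the dimmest of the 40 genes.

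Among the copies of cap subunits, Rpt3R had the largest difference, with 5.12, 4.96 and 4.96 on the mutant-labelled arrays and 4.66, 4.83 and 4.95 on the wild type arrays, with no overlap (difference 0.20, 95% interval -0.03 to 0.42, adjusted p = 0.444). Rpt4R, Rpn12R and Rpn13R differed by -0.02, 0.05 and -0.13 (adjusted p = 0.967, 0.857 and 0.596). Rpn13R was the brightest copy, with a mean of 5.94 ± 0.09 on the mutant-labelled arrays and 6.07 ± 0.08 on the wild type arrays (SD, n = 3 each). Most testis marker genes were dim too. Of 31 measured markers 21 had a mean signal under every lower quartile, as had 1717 of all 11982 genes. The markers mia (means 7.29 mutant-labelled and 7.36 wild type) and Mst98Ca (6.97 and 7.04) read above the median of every array. Limma called 0 of the 31 markers, where 4.09% of all genes were called. Before adjustment 1 had p under 0.05 with higher values, where 10.5% of all genes did. The median signal of the list was 4.71 to 4.74 on the mutant-labelled arrays and 4.69 to 4.72 on the wild type arrays.

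Genes that work with the proteasome were read from lists of assembly and associated factors, ubiquitin and its conjugating enzymes, the p97 complex and regulators of the transcription factor cnc. Of 45 genes written down 33 were measured, and 0 were called by limma, against 4.09% of all genes. Before adjustment 3 had p under 0.05 with higher values and 1 with lower values, against 10.5% and 6.31% of all genes. Of the 33, 24 had a difference above 0, as had 56.7% of all genes. Their median difference was 0.02, as it was over all genes.

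Of the 12 assembly and associated genes, ntc came nearest to the threshold. It encodes an F-box protein that is known to control caspases in sperm formation together with the proteasome regulator PI31. It read 7.34, 7.28 and 7.13 on the mutant-labelled arrays and 6.91, 6.89 and 6.78 on the wild type arrays, with no overlap (difference 0.39, SE 0.08, adjusted p = 0.0583). Usp14, a deubiquitinating enzyme bound to the cap, read 9.42, 9.71 and 9.73 against 9.34, 9.21 and 9.15 in wild type, also with no overlap (difference 0.39, adjusted p = 0.130). Pomp, the chaperone of core assembly, was chosen after its values were seen. It read 8.48, 8.90 and 8.51 against 8.57, 8.96 and 9.16 in wild type, a difference of -0.27 with overlapping groups (adjusted p = 0.613). Its difference was -0.43 without wild type replicate 1, -0.41 without mutant-labelled replicate 2 and -0.14 without wild type replicate 3, and among the alternatives run it was called lower only without the first 2 of these arrays together (-0.57, adjusted p = 0.0155). The median difference of these 12 genes was 0.01.

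The polyubiquitin gene Ubi-p63E differed by 0.19 (adjusted p = 0.412) and the conjugating enzyme variant Uev1A by 0.14 (adjusted p = 0.525). The median over the 10 measured genes of ubiquitin and its conjugating enzymes was 0.02. In the p97 complex, which extracts ubiquitinated proteins and hands them on, the ATPase gene TER94 differed by 0.16 (adjusted p = 0.564) and the cofactor gene Faf2 by -0.24 (adjusted p = 0.369), with a median of 0.07 over 5 genes. Among 6 genes around cnc, the fly's Nrf factor, whose relatives in mammals drive proteasome genes, cnc itself differed by 0.10 (adjusted p = 0.736). Its inhibitor gene Keap1 differed by 0.28 (adjusted p = 0.355), and Pngl, a peptide N-glycanase gene, by 0.25 (adjusted p = 0.387). The median of these 6 was 0.15.

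Rad23, which encodes a shuttle that carries ubiquitinated proteins to the cap, lies on chromosome 4, to which the Pof protein binds. It was singled out after its values were seen. It read 9.66, 10.01 and 9.96 on the mutant-labelled arrays and 9.93, 9.98 and 9.88 on the wild type arrays. The groups overlapped, and the difference was -0.05 (SE 0.10, adjusted p = 0.907).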

How the data were processed

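The values the authors deposited are log2 signals, 1 for each probe set, and the submitters' processing notes name RMA. Which RMA version was used is not given in the sources at hand. RMA as usually run quantile-normalizes the arrays, which removes a shift shared by most genes and compresses the folds of dim probe sets. Of 18952 probe sets, 183 controls were left out. The remaining 18769 named 1 gene (13647), several (402) or none (4720) in the platform's annotation, and symbols were updated by gene ID in a RefSeq table (Release 6 plus ISO1 MT), used for names and chromosome arms. A gene is its brightest single-gene probe set.

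All 18769 probe sets were fitted with lmFit and eBayes of limma 3.58.1 in R 4.3.3, 3 arrays a group and no covariates, with Benjamini-Hochberg adjustment over all of them. A call is an adjusted p under 0.05, SE is the moderated standard error and intervals are 95% from the moderated fit. Medians over gene groups are descriptions. Members, lists and alternatives were chosen with earlier results of these data known. Named were called members, the 8 with the smallest p, all copies, the brightest and dimmest 2 of core and cap, called or leading genes of each list and Pof. The remaining members, cnc, Pomp, Rad23 and the split of the cap into base and lid fall outside that rule and were chosen after their values were seen. On simulated data 55.2% of 1.5-fold and 81.4% of 2-fold changes were called over 5 runs of 200 changed probe sets, with a mean of 6.6 false calls. The number of arrays limits the precision.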

Additional observations from a re-analysis of the deposited data

How the results depend on the processing

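The median difference of the core stayed above 0 under every alternative run, between 0.16 and 0.27 when single arrays were left out, at 0.31 with array weights and at 0.30 without wild type replicate 1 and mutant-labelled replicate 2 together. That of the cap was 0.11 to 0.22 with single arrays left out and 0.25 without both arrays. The copies' median changed by less than its spread between replicates in each setting run, and under the filter to the brighter 60% of probe sets it could not be had, since 1 of 14 copies remained. The number of proteasome genes called was 6 with array weights, 2 at an adjusted p under 0.10, and 0 without each single array in turn, without both arrays together or when probe sets with a suffix (_s, _x, _a) were dropped, Prosalpha7's among them. Over all 11982 genes, 490 were called in the main fit, 840 with array weights and 712 without both arrays together. After quantile normalization the number was 526, and after cyclic loess 542. Without wild type replicate 1 it was 536, and without each other single array 202 to 300. Dropping probe sets with a suffix left 10075 genes, of which 397 were called. The number of associated genes called was 1 after quantile normalization and 1 after cyclic loess (ntc), 2 with array weights (ntc and Usp14), 1 at an adjusted p under 0.10 and 1 without both arrays together (Pomp, lower), and 0 without any single array. The replicate numbers were not shown to pair the samples (r = 0.18, 0.13 and 0.03 between same-numbered deviations, and mutant-labelled replicate 2 correlated best with wild type replicate 3). With the replicate number as a block 0 proteasome genes were called, where 476 of all 11982 genes were. Prosalpha7 then stood at a limma adjusted p = 0.0586 and the shared Prosalpha1 probe set at 0.0717. Without both arrays together these were 0.0656 and 0.0705.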

Other observations

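Further complexes of many subunits were read by symbol after the proteasome values had been seen, as descriptions. The COP9 signalosome, which removes the ubiquitin-like protein Nedd8 from cullins and resembles the proteasome lid in its subunits, had 8 measured genes, of which limma called 0, where 4.09% of all genes were called. Before adjustment, 1 had p under 0.05 with higher values and 1 with lower values, against 10.5% and 6.31% of all genes. CSN7 read 8.94, 9.07 and 9.08 on the mutant-labelled arrays and 8.72, 8.78 and 8.80 on the wild type arrays (difference 0.26, adjusted p = 0.135), and CSN4 read 9.29, 9.28 and 9.46 against 9.45, 9.66 and 9.62 in wild type (difference -0.23, adjusted p = 0.310). The median difference of the 8 genes was 0.06, and wild type replicate 1 was the highest wild type array for 0 of them, against 30.8% of all genes.

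The cytosolic chaperonin CCT, which folds actin and tubulin, had 8 measured genes, all with a difference above 0, as 56.7% of all genes had, and a median of 0.17. Limma called 0 of them, and 3 had p under 0.05 before adjustment, all 3 higher, where 10.5% of all genes were. CCT7 had the largest difference, with 9.88, 9.93 and 9.77 on the mutant-labelled arrays and 9.63, 9.57 and 9.58 on the wild type arrays (0.27, adjusted p = 0.123). Wild type replicate 1 was the highest wild type array for 8 of the 8 CCT genes, as it was for 25 of the 26 proteasome core and cap genes and 30.8% of all genes. Mutant-labelled replicate 3 was the highest mutant-labelled array for 1 of the 8, against 22 of the 26 and 25.5% of all genes.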
